A study of Mus musculus with 12 samples.

Results

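The growth hormone and insulin-like growth factor (IGF) axis of the liver was followed through 10 genes in mouse livers injured with concanavalin A (Con A). The genes were taken by symbol as a receptor (Ghr), its transcription factors (Stat5a and Stat5b), feedback inhibitors (Socs2 and Cish) and the hepatic IGF system (Igf1, Igfals, Igfbp1, Igfbp2 and Igfbp3). All 10 were found among the 23574 entries of the count tables, and all 10 passed the filter on low counts that left 14275 genes for testing. The 12 libraries came from liver of wild type C57BL/6 mice, and every group analysed here was injected with Con A, the jack bean lectin, whose T cell stimulation causes hepatitis. The 4 groups of 3 libraries were Con A without mesenchymal stem cells (MSC) at 6 h, Con A with MSC at 6 h, Con A without MSC at 12 h and Con A with MSC at 12 h. No group without Con A is analysed here, and time after injection cannot be told apart from time of day or from feeding. The sources used here do not give age, sex, the source of the MSC or whether the replicates are separate animals. The p-values therefore measure the spread between these samples, which may be technical.

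Growth hormone from the pituitary binds the receptor GHR on hepatocytes, and the kinase JAK2 bound to the receptor phosphorylates STAT5, which enters the nucleus and switches on Igf1, Igfals, Socs2 and Cish. The SOCS2 and CIS proteins then dampen the receptor, so their transcripts are commonly read as immediate targets of the pathway. IGF1 leaves the liver and circulates bound to IGFBP3 and the acid-labile subunit encoded by Igfals, whereas IGFBP1 and IGFBP2 form smaller complexes. Igfbp1 is repressed by insulin through FOXO1 and is known as a rapidly induced gene of fasting, stress and inflammation. In the liver Igfbp3 is made mainly by cells other than hepatocytes.

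Library totals ran from 29688137 to 36131512 counts. The share of mitochondrially encoded genes was 5.59%, 17.3% and 24.9% in Con A 12 h replicates 1, 2 and 3, the lowest and the 2 highest shares of all 12 libraries. It was 6.71% to 12.1% in the other groups. All 10 hepatocyte markers had counts in every library, Alb, the gene of serum albumin, among them. The summed level of the list was 91653 to 121136 CPM (counts per 1000000 of a library size scaled by the TMM method) at 6 h and 41940 to 60187 CPM at 12 h. In RNA of whole tissue, fewer cells of a type and less RNA per cell cannot be told apart. The Y-linked genes Ddx3y, Eif2s3y, Kdm5d and Uty had counts in all 12 libraries, with the lowest value at 3.40 CPM. Every gene of the axis was well covered, the lowest single count being 176 for Socs2 and the highest 90290 for Igfbp1.

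Promoter sequence was taken from the RefSeq windows of GRCm38.p6. Each holds 300 bases, 250 of them upstream of an annotated start and the rest from the start onward. In all 15 windows were found, for 9 of the 10 genes, all but Socs2. The counts were made on GRCm39, so the coordinates given here belong to the RefSeq windows only. Both strands were searched for TTCNNNGAA, the palindromic core that STAT5 is known to recognise, and for CAAAACAA, the core of the insulin response element of Igfbp1. TTCNNNGAA was found in windows of 2 of these 9 genes, Cish and Igfals, and of 9.55% of all 27025 genes in the table (8.30% of its 32851 windows). CAAAACAA was found for 1 of the 9, Igfbp1, and for 2.88% of all genes (2.51% of windows). Only 0.457% of all windows hold 2 or more copies of TTCNNNGAA, and the Cish window is one of them. The stretches that carry these letters are shown because Cish and Igfbp1 were among the genes that moved most, with the matches in capitals (5′ to 3′ on the plus strand, GRCm38.p6).
Cish, chr9:107296579-107296680: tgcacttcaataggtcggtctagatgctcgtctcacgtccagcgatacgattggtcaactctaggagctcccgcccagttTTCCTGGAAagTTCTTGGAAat
Igfals, chr17:24878131-24878230: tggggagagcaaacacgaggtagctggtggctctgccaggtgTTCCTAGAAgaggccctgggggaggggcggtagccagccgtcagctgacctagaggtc
Igfbp1, chr11:7197637-7197736: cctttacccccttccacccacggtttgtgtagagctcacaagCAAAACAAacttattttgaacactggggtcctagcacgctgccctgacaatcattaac
The 2 Cish matches lie side by side, beginning 0 and 11 bases past the annotated start and so not upstream of it. The Igfals match lies 58 bases before a start. A second Igfals match, 236 bases before another annotated start, is not shown. A match of letters is a description and does not show that a factor was bound.

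Per kilobase of transcript, Igfbp1 was the most abundant of the 10 genes at 6 h and Igf1 at 12 h. The level of Igfbp1 at 6 h was 1575 CPM per kb in the Con A group and 1709 CPM per kb with MSC, ranks 66 and 73 among 13187 tested genes of known length. At 12 h it was 89.4 and 44.0 CPM per kb, ranks 532 and 929. Igfbp2 came next at 6 h, with 264 and 281 CPM per kb. Igf1 stood at 233 and 278 CPM per kb at 6 h and at 264 and 133 CPM per kb at 12 h, without and with MSC. Stat5a and Stat5b were among the lowest at 6 h, between 7.77 and 9.15 CPM per kb, and Igfbp3 lay at 10.2 and 8.61 CPM per kb. These levels rest on transcript lengths of GENCODE M21, which may differ from the models used for counting.

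**Figure D1:**
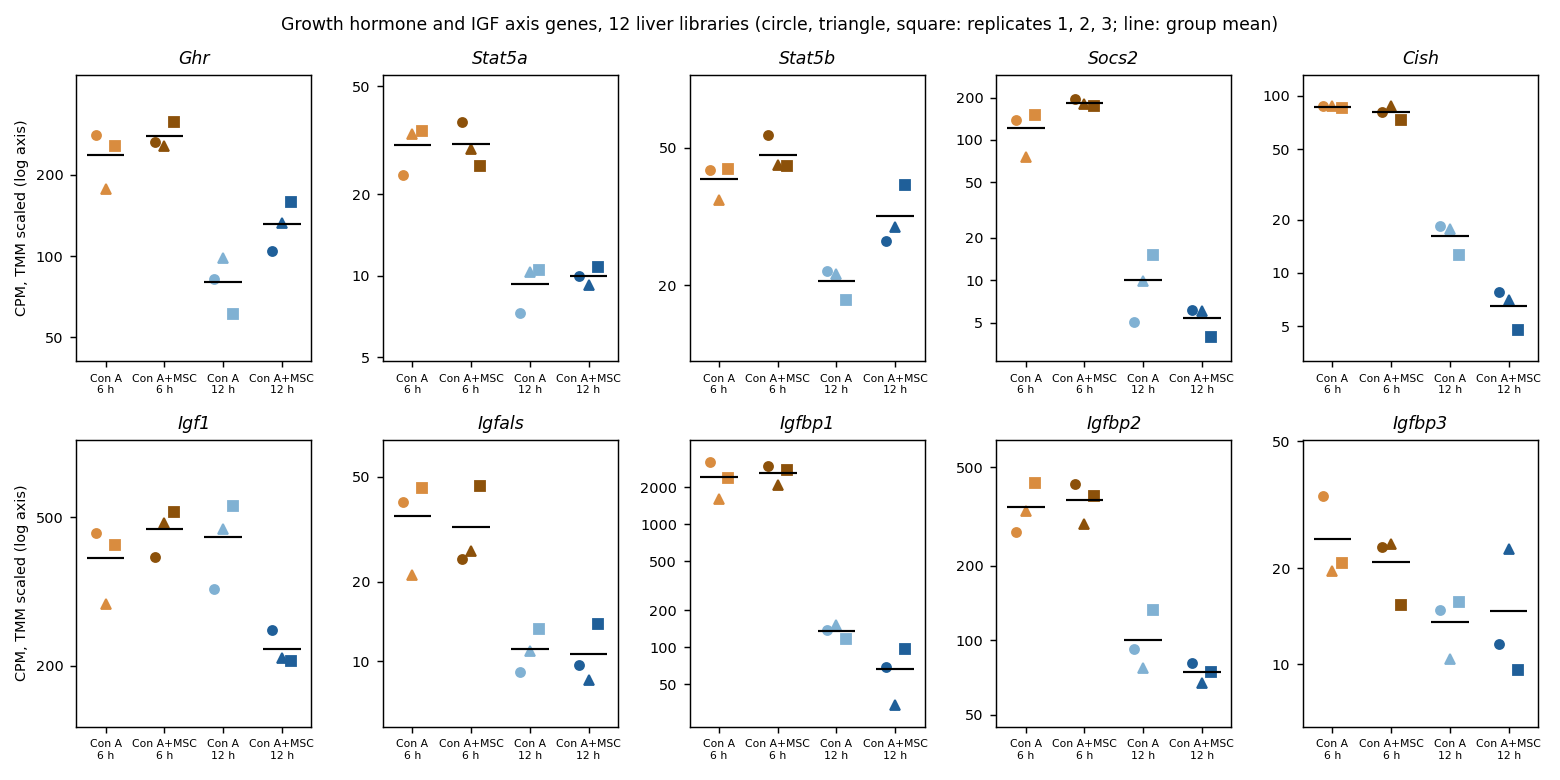
CPM (TMM scaled, log axis) of the 10 genes in each of the 12 libraries, with symbols for replicates 1 to 3 and a line at each group mean. Socs2, Cish and Igfbp1 show a wide gap between the 6 h and 12 h libraries, from at least 1593 CPM to at most 153 CPM for Igfbp1, whereas Igf1 is lower only in the 3 libraries with MSC at 12 h.

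The comparison of 12 h with 6 h asked how the axis changed as the injury went on. Without MSC 9 of the 10 genes fell, 0 rose and Igf1 did not pass. With MSC 9 fell, Igf1 among them, and Igfbp3 did not pass. Over all genes tested, 24.8% fell and 49.2% passed in either direction without MSC, and 20.2% fell and 40.7% passed in either direction with MSC (edgeR quasi-likelihood test, adjusted p below 0.05). The median log2 change of the 10 genes was -1.69 without MSC and -1.60 with MSC, beside 0.02 and 0.06 for all genes tested. Hepatocyte markers were lower at 12 h too: 6 of 10 fell in each comparison. Of 10 genes of pericentral and periportal hepatocytes 8 fell without MSC and 7 with MSC, and of 10 neutrophil markers 8 and 6. With MSC the hepatocyte count became 3 with total count scaling or without Con A + MSC 12 h replicate 2. The neutrophil count with MSC became 3 with that scaling, without replicate 1 of Con A + MSC 6 h or without replicate 3 of Con A + MSC 12 h. The part of these cells in the falls of the axis was not tested. The 2 comparisons use different libraries.

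The receptor fell with time in both arms. Ghr had 280, 177 and 256 CPM in the Con A 6 h libraries and 82.3, 97.9 and 61.1 CPM at 12 h. The 12 h libraries all lay below the 6 h libraries, and the log2 change was -1.56 ± 0.23 (SE; edgeR adjusted p = 1.93e-04). With MSC Ghr had 264, 256 and 314 CPM at 6 h and 104, 133 and 158 CPM at 12 h, again without overlap (log2 -1.08 ± 0.23, edgeR adjusted p = 0.00258). Scaled by total count alone this second change was -0.55 and did not pass (adjusted p = 0.0730).

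Both STAT5 genes fell in both arms. Stat5a had 30.4 ± 5.96 CPM at 6 h and 9.35 ± 1.82 CPM at 12 h without MSC (mean ± SD, n = 3; log2 -1.70 ± 0.21 SE, edgeR adjusted p = 5.54e-05) and 30.5 ± 5.82 CPM at 6 h and 9.96 ± 0.754 CPM at 12 h with MSC (log2 -1.61 ± 0.21, edgeR adjusted p = 9.06e-05). Stat5b, the form that carries most of the growth hormone signal in liver, had 40.5 ± 4.61 CPM at 6 h and 20.6 ± 2.18 CPM at 12 h without MSC (log2 -0.98 ± 0.17, edgeR adjusted p = 6.31e-04). With MSC it had 54.2, 44.5 and 44.3 CPM at 6 h and 26.9, 29.5 and 38.9 CPM at 12 h (log2 -0.59 ± 0.17, edgeR adjusted p = 0.0152). The Stat5b call with MSC ended with total count scaling (log2 -0.05, adjusted p = 0.854), and on leaving out Con A + MSC 6 h replicate 1 (adjusted p = 0.0776) or Con A + MSC 12 h replicate 1 (0.0608) or 2 (0.0586). The per-kilobase ratio of Stat5b to Stat5a was 0.786 to 1.37 in the 6 h libraries and 1.29 to 2.70 in the 12 h libraries. The 2 genes are neighbours of closely related sequence, so reads may have been divided between them with error, and 1.01% of the exon bases of Stat5a are shared with Stat3 on the other strand in GENCODE M21.

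The feedback genes showed some of the deepest falls. Socs2, which encodes an adaptor that marks the growth hormone receptor for degradation, had 139, 75.3 and 150 CPM in Con A 6 h and 5.00, 9.91 and 15.2 CPM in Con A 12 h. Its level was 12.1-fold lower at 12 h (log2 -3.60 ± 0.38 SE, edgeR adjusted p = 2.13e-05). With MSC Socs2 had 194, 181 and 173 CPM at 6 h and 6.15, 6.07 and 3.98 CPM at 12 h, which was 33.9-fold lower (log2 -5.08 ± 0.41, edgeR adjusted p = 3.51e-06). It ranked 38 among the falls of all 14275 genes.
Cish, which encodes a SOCS protein that blocks STAT5 docking, had 87.7, 87.2 and 85.4 CPM in Con A 6 h, the tightest group of any gene of the axis. At 12 h the 3 libraries had 18.3, 17.8 and 12.7 CPM, which was 5.34-fold lower (log2 -2.42 ± 0.20, edgeR adjusted p = 6.13e-06). With MSC Cish had 81.2, 87.7 and 73.0 CPM at 6 h and 7.85, 7.01 and 4.77 CPM at 12 h, 12.3-fold lower (log2 -3.62 ± 0.21, edgeR adjusted p = 6.07e-07). It ranked ninth of all genes by p there. No 12 h library reached the 6 h range for either gene.
Part of the exon bases of Cish (11.5%) overlap antisense gene models in GENCODE M21, and no source used here gives the strand setting of the counting.

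Igf1, the growth factor itself, passed with MSC and not without. It had 455, 292 and 421 CPM in Con A 6 h and 322, 467 and 538 CPM in Con A 12 h. The 2 groups overlapped (log2 0.18 ± 0.22, edgeR adjusted p = 0.516), and the sign turned to -0.09 with the mitochondrial share as a covariate. Within Con A 12 h the order of the libraries in Igf1 was also their order in mitochondrial share (5.59%, 17.3% and 24.9%). Socs2, Stat5a and Igfals had the same order there, and Cish and Stat5b had the reverse order. With MSC Igf1 fell from 392, 483 and 518 CPM at 6 h to 250, 210 and 206 CPM at 12 h, with no overlap (log2 -1.06 ± 0.22, edgeR adjusted p = 0.00262).
Igfals, the partner that keeps IGF1 in the circulation, fell in both arms. It had 35.6 ± 12.7 CPM at 6 h and 11.1 ± 2.05 CPM at 12 h without MSC (log2 -1.68 ± 0.32, edgeR adjusted p = 0.00107) and 32.2 ± 12.0 CPM at 6 h and 10.7 ± 2.82 CPM at 12 h with MSC (log2 -1.59 ± 0.32, edgeR adjusted p = 0.00186). It was 3.21-fold lower at 12 h without MSC and 3.02-fold lower with MSC.

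Of the binding proteins Igfbp1 and Igfbp2 fell in both arms, and Igfbp3 without MSC. Igfbp1 had 3236, 1593 and 2376 CPM in Con A 6 h and 139, 153 and 117 CPM in Con A 12 h, which was 17.6-fold lower (log2 -4.14 ± 0.39, edgeR adjusted p = 1.03e-05). With MSC it had 2991, 2091 and 2735 CPM at 6 h and 69.7, 34.1 and 97.6 CPM at 12 h, 38.8-fold lower (log2 -5.28 ± 0.41, edgeR adjusted p = 2.97e-06). This was the largest fitted fall of the 10 genes in both arms, with ranks 114 and 33 among all genes.
Igfbp2, a binding protein that rises when growth hormone or insulin action is low, had 345 ± 78.5 CPM at 6 h and 101 ± 28.6 CPM at 12 h without MSC (log2 -1.78 ± 0.23, edgeR adjusted p = 9.68e-05). With MSC it had 367 ± 66.7 CPM at 6 h and 74.3 ± 6.95 CPM at 12 h (log2 -2.31 ± 0.24, edgeR adjusted p = 2.23e-05).
Igfbp3, the main carrier of IGF1 in blood, had 33.7, 19.6 and 20.7 CPM in Con A 6 h and 14.8, 10.4 and 15.6 CPM in Con A 12 h (log2 -0.86 ± 0.33, edgeR adjusted p = 0.0454). The call was lost in 8 of 14 other settings: with total count scaling, the block, the mitochondrial covariate, without Con A 6 h replicate 1 or 3 and without any 1 of the Con A 12 h libraries. The adjusted p was at most 0.217, without Con A 6 h replicate 1. With MSC the 6 h libraries had 23.4, 23.9 and 15.3 CPM and the 12 h libraries 11.5, 23.0 and 9.56 CPM, so the groups overlapped (log2 -0.50 ± 0.33, edgeR adjusted p = 0.236; 0.05 with total count scaling). Without the high library, Con A + MSC 12 h replicate 2, the change was -0.97 and passed (adjusted p = 0.0267). Markers of sinusoidal endothelium, a cell type that can express Igfbp3, moved with time as well: 6 of 10 fell and 1 rose without MSC, and 1 fell and 3 rose with MSC.

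**Figure D2:**
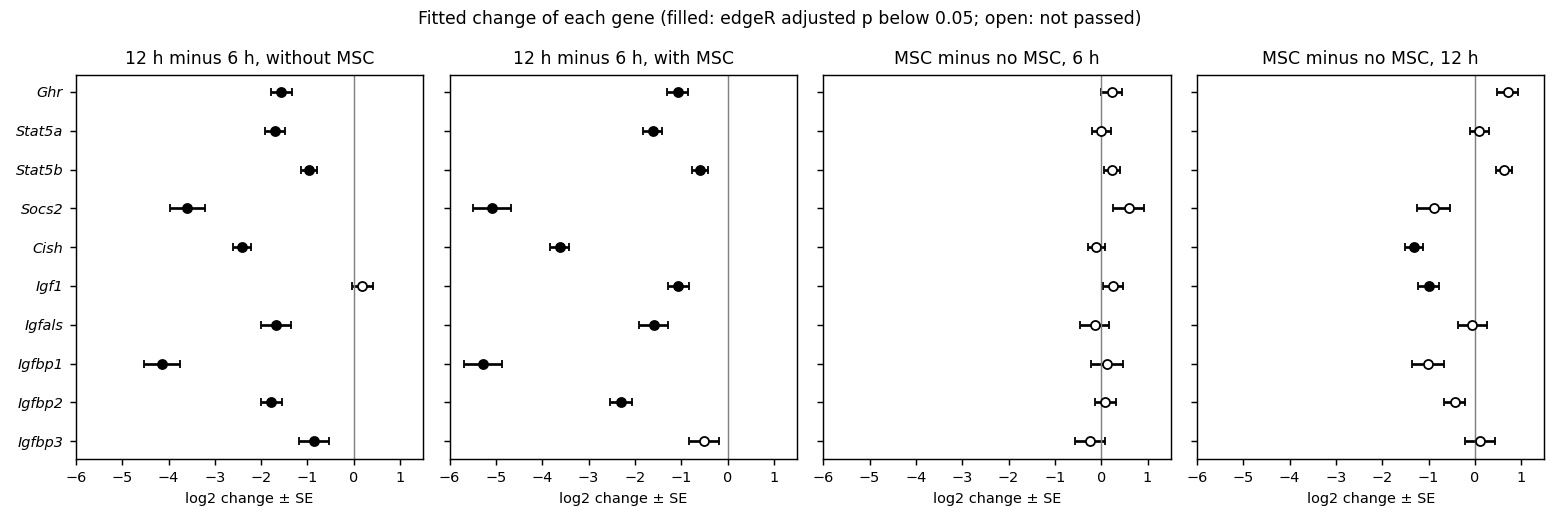
Fitted log2 change ± SE of each gene in the 4 pairwise comparisons, filled where the edgeR adjusted p was below 0.05. With time 9 of 10 points are filled in each arm, reaching -5.28 for Igfbp1, while with MSC only Cish and Igf1 at 12 h are filled.

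The mix of binding protein transcripts differed between the times, which is given as a description with no test. Among the 7 genes Igfbp1 to Igfbp7, Igfbp1 made up 69.8% to 80.7% of the summed level per kilobase in the 6 libraries at 6 h. It made up 23.2% to 29.4% in Con A 12 h and 8.17% to 19.7% in Con A + MSC 12 h. Igfbp4, which binds IGFs in tissue and is abundant in hepatocytes, did not pass in either time comparison (log2 -0.32 and -0.47, edgeR adjusted p = 0.152 and 0.0536), and its share went from between 8.15% and 12.2% to between 40.9% and 56.7%. The summed level of the 7 genes was 1497 to 2629 CPM per kb at 6 h and 274 to 357 CPM per kb at 12 h. The ratio of Igf1 to Igfbp1 per kilobase was 0.119 to 0.211 at 6 h, so Igfbp1 exceeded Igf1 in all 6 libraries. At 12 h it was 1.93 to 5.60, and Igf1 exceeded Igfbp1 in all 6.

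**Figure D3:**
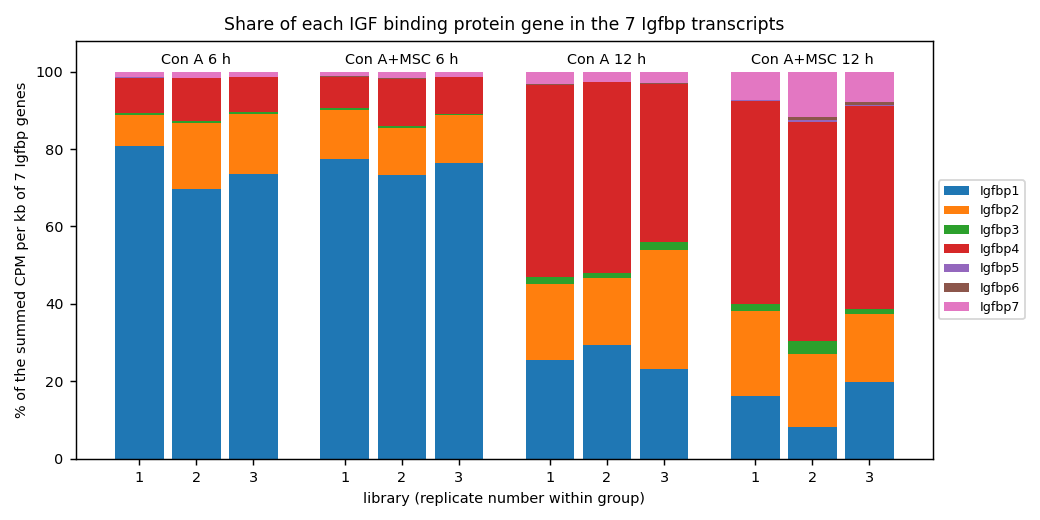
Share of each of the 7 Igfbp genes in their summed CPM per kb, 1 bar for each library. Igfbp1 takes at least 69.8% of every 6 h bar and at most 29.4% of any 12 h bar, where Igfbp4 takes at least 40.9%.

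The comparison of livers with and without MSC at 6 h showed no difference in the axis that passed. Of the 10 genes 0 passed, beside 0.0981% of all genes tested. None had an unadjusted p below 0.05, beside 10.9% of all genes, and DESeq2 called 0 as well. The fitted differences lay between -0.24 (Igfbp3) and 0.59 (Socs2), with a median of 0.10 beside -0.01 for all genes. Socs2 had 194, 181 and 173 CPM with MSC and 139, 75.3 and 150 CPM without, so the groups did not overlap, yet the difference of 0.59 ± 0.34 did not pass (edgeR adjusted p = 0.582). Stat5b was the other gene whose groups did not overlap, at 44.3 to 54.2 CPM with MSC and 35.2 to 43.3 CPM without (log2 0.23 ± 0.17, edgeR adjusted p = 0.690). The share of all genes without overlap is not given here for any comparison, so a lack of overlap is a description only. Cish, with 80.6 ± 7.38 against 86.8 ± 1.21 CPM, and Igfbp1, with 2606 ± 463 against 2402 ± 822 CPM, differed by less than their SE (log2 -0.11 ± 0.19 and 0.12 ± 0.34).

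At 12 h the livers with MSC had less Cish and less Igf1 RNA. These 2 of the 10 genes fell, 0 rose and 8 did not pass. Of all 14275 genes 255 fell and 327 rose, 4.08% in either direction. The median of the 10 genes was -0.25, beside 0.00352 for all genes.
Cish had 7.85, 7.01 and 4.77 CPM with MSC and 18.3, 17.8 and 12.7 CPM without, 2.48-fold lower and with no overlap (log2 -1.31 ± 0.20, edgeR adjusted p = 0.00734). It kept its call in 13 of 14 other settings, with log2 values from -1.48 to -1.07, and lost it in a fit of the 6 compared libraries alone (adjusted p = 0.0548).
Igf1 had 250, 210 and 206 CPM with MSC and 322, 467 and 538 CPM without, again with no overlap (log2 -0.99 ± 0.22, edgeR adjusted p = 0.0336). The Igf1 call held in 6 of 14 other settings, with log2 values from -1.18 to -0.64 over all of them. It ended with the mitochondrial share as a covariate (log2 -0.64, adjusted p = 0.166), with total count scaling (-0.69, 0.0534), with the replicate number as a block (-0.98, 0.0607) and in the 6 libraries alone (-0.99, 0.0821). It also ended without Con A 12 h replicate 2 or 3 (adjusted p = 0.106 and 0.0879) as well as when Con A + MSC 12 h replicate 2 or 3 was left out (0.128 and 0.152). In these fits 84, 314, 130 and 66 of all genes passed, beside 582 with all libraries.

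Ghr and Stat5b had higher values with MSC at 12 h, opposite in sign to Cish and Igf1, and did not pass. Ghr had 104, 133 and 158 CPM with MSC and 82.3, 97.9 and 61.1 CPM without (log2 0.71 ± 0.23, edgeR adjusted p = 0.0934). Stat5b had 26.9, 29.5 and 38.9 CPM with MSC and 22.1, 21.6 and 18.1 CPM without (log2 0.62 ± 0.17, edgeR adjusted p = 0.0614). The groups overlapped in neither gene. Both passed with DESeq2 (adjusted p = 0.0387 and 0.0194), with total count scaling (0.0348 and 0.0269) as well as when Con A + MSC 12 h replicate 1 was left out (0.0495 and 0.0320).
Igfbp1 had 69.7, 34.1 and 97.6 CPM with MSC and 139, 153 and 117 CPM without (log2 -1.02 ± 0.35, edgeR adjusted p = 0.112). Its groups did not overlap either, and it passed with DESeq2 (adjusted p = 0.0323).
Socs2 had 6.15, 6.07 and 3.98 CPM with MSC and 5.00, 9.91 and 15.2 CPM without (log2 -0.89 ± 0.35, edgeR adjusted p = 0.167). Here too the order within Con A 12 h was that of the mitochondrial share, whereas Cish and Stat5b had the reverse order. With that share as a covariate the Socs2 difference was -0.06 (edgeR adjusted p = 0.948), and without Con A 12 h replicate 1 it was -1.22 and passed (0.0395).
Stat5a, Igfals, Igfbp2 and Igfbp3 had differences of 0.09, -0.05, -0.44 and 0.11, with adjusted p from 0.285 to 0.937. The Igfals difference was 0.23 with total count scaling.

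**Figure D4:**
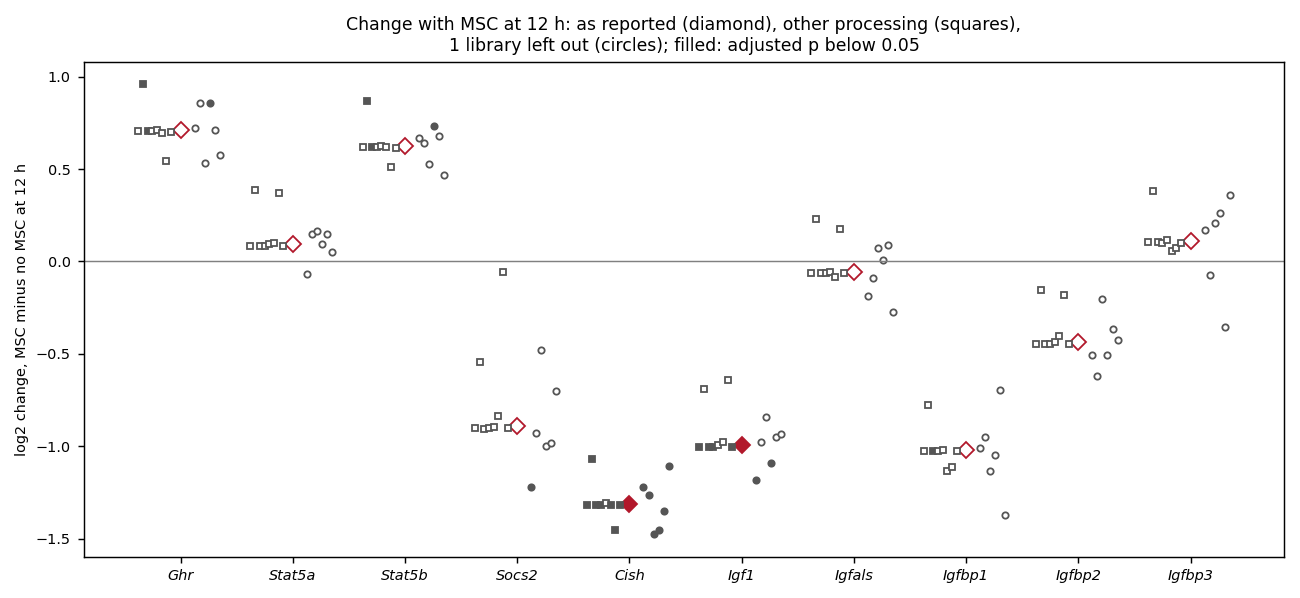
Log2 change with MSC at 12 h for each gene as reported (diamond), under 8 other ways of processing (squares) and with 1 library left out (circles), filled where the adjusted p was below 0.05. Cish stays between -1.48 and -1.07, whereas Socs2 reaches from -1.22 to -0.06.

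Whether the MSC effect differed between 6 h and 12 h was tested as an interaction, and 0 of the 10 genes passed, beside 0.126% of all genes. Of the 10, 4 had an unadjusted p below 0.05, beside 16.8% of all genes. These were Igf1 (log2 -1.25 ± 0.32, edgeR adjusted p = 0.0945), Cish (-1.21 ± 0.27, 0.0776), Socs2 (-1.48 ± 0.49, 0.165) and Igfbp1 (-1.14 ± 0.49, 0.264), each with a more negative difference at 12 h than at 6 h. DESeq2 called 2 of them, Igf1 (adjusted p = 0.0100) and Cish (0.00299). With edgeR Igf1 passed without Con A 12 h replicate 1 (adjusted p = 0.0496), and Cish passed when replicate 3 of Con A 12 h (0.0416) was left out, or replicate 1 of Con A + MSC 12 h (0.0441). The comparisons share libraries: each 12 h group enters both an MSC comparison and a time comparison, so their values are given side by side and not as separate evidence.

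Of 20 other genes of growth hormone receptor signalling 13 fell and 0 rose with time without MSC, and 15 fell and 2 rose with MSC, beside falls in 24.8% and 20.2% of all genes. The medians were -0.76 in both. With total count scaling 8 and 7 fell. Jak2, the kinase of the receptor, had 60.5 ± 7.16 CPM at 6 h and 9.34 ± 1.52 CPM at 12 h without MSC (log2 -2.69 ± 0.21, edgeR adjusted p = 5.6e-06) and 52.9 ± 11.3 CPM at 6 h and 12.8 ± 2.56 CPM at 12 h with MSC (log2 -2.05 ± 0.21, edgeR adjusted p = 2.08e-05). The tyrosine phosphatases Ptpn2 and Ptpn1, which dephosphorylate JAK and STAT proteins, fell by 2.18 and 1.33 on the log2 scale without MSC and by 2.67 and 1.68 with MSC. Stat3, which carries the interleukin-6 signal, fell by 1.38 and 1.55. Ptpn6, a tyrosine phosphatase of blood cells, was among the genes that rose with MSC (log2 0.75) and was named after its values were seen. With MSC against no MSC 0 of 20 passed at 6 h or at 12 h with edgeR, and 2 and 5 had an unadjusted p below 0.05, a share close to that of all genes (1561 and 3146 of 14275). DESeq2 called 0 at 6 h and 3 at 12 h.

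Of 17 tested genes of the wider IGF and insulin system 7 fell and 2 rose with time without MSC, and 5 fell and 3 rose with MSC. The shares that passed in either direction, 52.9% and 47.1%, were near those of all genes (49.2% and 40.7%). The shares that fell were 41.2% and 29.4%, beside 24.8% and 20.2% of all genes. The medians were -0.90 and -0.47, and the second became 0.06 with total count scaling, where 3 fell. In the compared libraries alone 7 fell with MSC. The 3 that rose with MSC became 2 with the block or the mitochondrial covariate. They also became 2 without replicate 1 or 2 of Con A + MSC 6 h, or replicate 2 or 3 of Con A + MSC 12 h. Irs2, an insulin receptor substrate repressed by insulin in liver, had 91.7 ± 16.9 CPM at 6 h and 26.0 ± 4.55 CPM at 12 h without MSC, and 80.6 ± 8.71 and 17.0 ± 6.64 CPM with MSC (log2 -1.82 and -2.25, edgeR adjusted p = 1.86e-04 and 6.1e-05). Irs1 rose in both arms (log2 2.42 and 3.11), and so did Fgf21, a fasting hormone of the liver that stayed at or below 4.36 CPM. Grb14, an inhibitor of the insulin receptor, rose with MSC (log2 0.58) and had 0.47 without MSC, which did not pass (edgeR adjusted p = 0.0758). Fgf21 and Grb14 were named after their values were seen. Foxo3 (log2 -1.66 and -1.43) and Trib1, a pseudokinase (-2.10 and -2.76), fell in both. At 12 h Igfbp7, a binding protein of endothelial and stromal cells, was higher with MSC (31.3 ± 7.06 against 12.1 ± 1.72 CPM; log2 1.37 ± 0.20, edgeR adjusted p = 0.00734) and Trib1 was lower (log2 -0.85, edgeR adjusted p = 0.0192). The Igfbp7 call was lost in 1 of 14 other settings, the mitochondrial covariate (adjusted p = 0.0527). The Trib1 call was lost in 6 of 14, with adjusted p up to 0.102: with total count scaling, in the 6 libraries alone, with the mitochondrial covariate and without Con A 12 h replicate 2, Con A + MSC 12 h replicate 2 or its replicate 3.

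Liver genes that depend on growth hormone pulses through STAT5b were also followed; they are higher in males. Of 18 genes 8 fell and 1 rose without MSC, with a median of -0.82, and 15 fell and 0 rose with MSC, with a median of -1.76. Over all genes 24.8% and 20.2% fell. The 15 became 10 with total count scaling (median -1.20) and 10 without Con A + MSC 6 h replicate 1. Without Con A + MSC 12 h replicate 2 they became 11. The 8 ranged from 6, without Con A 6 h replicate 3, to 10 with DESeq2. Whether the arms differ was tested gene by gene as the interaction, in which 0 of 18 passed with edgeR, 7 had an unadjusted p below 0.05 and 3 passed with DESeq2. Slco1a1, an organic anion transporter, fell by 2.63 and 1.92 on the log2 scale, and Cyp2d9, a steroid hydroxylase, by 1.69 and 1.37. Hsd3b5, a steroid reductase, had 25.7 ± 18.8 CPM at 6 h and 0.462 ± 0.295 CPM at 12 h without MSC and 28.4 ± 11.5 CPM at 6 h and 5.59 ± 4.49 CPM at 12 h with MSC. It was the 1 gene of the list that passed with MSC at 12 h (log2 3.66 ± 0.81, edgeR adjusted p = 0.0323), a call lost in 7 of 14 other settings with adjusted p up to 0.126. These were the 6 libraries alone, the mitochondrial covariate, leaving out any 1 of the Con A 12 h libraries, and leaving out replicate 2 or 3 of Con A + MSC 12 h. Moxd1, the gene that rose, reached at most 1.95 CPM in any library and lost its call whenever 1 library was left out, and the major urinary protein genes (Mup) are near-identical copies whose counts cannot be assigned with certainty. Of 12 genes that are higher in females, 6 had enough counts to be tested, of which 5 fell and 1 rose (Cyp17a1) without MSC and 1 fell (Cyp2a4) with MSC. The 5 became 2 without Con A 6 h replicate 3, and 3 in the compared libraries alone or without replicate 2 or 3 of Con A 12 h. Cyp2a4 had 28.6 ± 17.6 CPM at 6 h and 0.550 ± 0.191 CPM at 12 h without MSC.

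Markers of other liver cells moved between the groups at 12 h and are given beside Igfbp3, Igfbp7 and Igf1, which such cells can also express. Summed over 10 genes each, sinusoidal endothelial markers had 39.0 to 54.4 CPM in Con A 12 h and 106 to 150 CPM in Con A + MSC 12 h. Stellate cell markers had 51.4 to 70.4 and 110 to 209 CPM, and Kupffer cell markers had medians of 20.1 and 101 CPM. Of these lists 6, 6 and 4 genes rose with MSC at 12 h and 0 fell. Of all 14275 genes 327 rose and 255 fell there, 4.08% in either direction. The counts changed with the libraries kept: without Con A 12 h replicate 2 they were 1, 1 and 0. They were 2, 1 and 2 when replicate 2 of Con A + MSC 12 h was left out, and the same 2, 1 and 2 when its replicate 3 was. Over all genes 84, 130 and 66 passed in these fits, beside 582 with all libraries. The median log2 changes of the lists were 1.63, 1.35 and 1.85 with all libraries. Without Con A 12 h replicate 2 these medians were 1.44, 1.23 and 1.49. Without Con A 12 h replicate 1 the counts were 5, 7 and 3, and without its replicate 3 they were 5, 7 and 6. Without Con A + MSC 12 h replicate 1 they were 6, 6 and 3. With the mitochondrial covariate they were 2, 1 and 0, and in the 6 libraries alone 5, 0 and 2. Total count scaling gave 8, 8 and 9, and DESeq2 8, 9 and 9. At 6 h the endothelial sums were 83.7 to 139 CPM without and 92.7 to 141 CPM with MSC, and 0 of 10 passed, 1 with an unadjusted p below 0.05. All markers of the endothelial and stellate lists had counts in every library, and of the Kupffer list all but Vsig4. The part of these cells in the values of Igfbp3, Igfbp7 and Igf1 was not tested.

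The genes whose profiles over the 12 libraries were most like those of Igfbp1, Socs2 and Igf1 were sought by the root mean square difference of centred log2 CPM. For Igfbp1, whose own range was 6.56, these were Tiparp, an aryl hydrocarbon receptor target (0.45), Pfkfb3, a regulator of glycolysis (0.46), and Btg2, an antiproliferative early response gene (0.48). For Socs2 they were Pfkfb3 (0.43), Tiparp (0.45) and Car3, a carbonic anhydrase (0.54). Pfkfb3 had 746 ± 309 and 926 ± 185 CPM at 6 h and 58.6 ± 1.68 and 31.2 ± 3.08 CPM at 12 h, without and with MSC. For Igf1, with a range of 1.38, they were Drg1 (0.15), Nhp2 (0.16) and Dph5 (0.20), which act in translation and ribosome assembly. Drg1 had 65.5 ± 17.6 CPM in Con A 12 h and 40.6 ± 0.859 CPM in Con A + MSC 12 h. The libraries share depth, scaling and the time points, so the likeness is a description of these profiles only.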

How the data were processed

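Libraries from liver RNA (Trizol, oligo(dT) beads, random hexamer priming, per the labels) were deposited as 4 tables of whole-number counts per gene, 1 column for each replicate, which the authors did not normalize, going by the values. GRCm39, StringTie 2.1.2, Bowtie2 2.2.5 and HISAT2 2.0.4 are listed in the submitters' processing notes; no source used here gives the counting program, annotation or strand setting. Groups and replicate numbers come from the titles. Genes were filtered with filterByExpr (14275 of 23574 kept), scaled with TMM and tested with edgeR 4.0.16 (glmQLFit, glmQLFTest, two-sided) in 1 fit of 12 libraries with a mean per group and 8 residual degrees of freedom. P-values were adjusted by Benjamini-Hochberg over all genes tested, threshold 0.05; SE is the log2 change over the square root of F. DESeq2 1.42.0 was an alternative. CPM use TMM factors. The procedure was tested on simulated data in which far fewer genes changed than passed with time here. No result given here rests on that test. Replicates of a group differed by far more than sampling noise. Lengths are those of the principal transcript in GENCODE M21. The 10 genes and the lists were chosen with earlier results of these data known. All 10 genes are named; of each list up to 4 genes with the smallest adjusted p per comparison, and the 3 nearest profiles for Igfbp1, Socs2 and Igf1. Of the genes that the naming rule covers, 1 is not reported here.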

Additional observations from a re-analysis of the deposited data

How the results depend on the processing

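Of the 10 genes 8 kept their time calls without MSC, and 7 with MSC, under all 14 alternatives of each comparison; the numbers that fell ranged from 8 to 9 and from 7 to 9. With MSC at 12 h the 2 calls became 5 with DESeq2, 0 in the compared libraries alone, 1 with the replicate number as a block, 1 with mitochondrial share in the model, and 1 to 4 with 1 library left out (1 without Con A replicate 2 or 3 or Con A + MSC replicate 2 or 3, 4 without Con A + MSC replicate 1). With total count scaling at 12 h Igf1 lost its call, Cish kept it, and Ghr and Stat5b, both higher with MSC, gained one. In the interaction 0 became 2 with DESeq2 and 0 to 1 with 1 library left out. Deviations of same-numbered libraries correlated at -0.23 to 0.13, so the numbers do not pair them; the block changed 1 other call, Igfbp3 with time without MSC (log2 -0.82, adjusted p = 0.0624). Total count scaling moved the median log2 change of all genes from 0.02 to 0.28 and from 0.06 to 0.59 with time, without and with MSC, and from 0.00352 to 0.26 with MSC at 12 h, where the split of calls went from 327 higher and 255 lower to 734 and 95. With time it went from 3479 and 3541 to 4301 and 2353 without MSC, and from 2936 and 2878 to 5789 and 1227 with MSC. Over all genes with MSC at 12 h, 582 passed, 1462 with DESeq2, 135 in the compared libraries alone, 313 with the block and 114 with the mitochondrial covariate. With MSC at 6 h 14 passed, 307 with DESeq2 and 4 with the block. The sign turned for differences close to 0: Stat5a with MSC at 6 h was -0.0284 with total count scaling, -0.0074 in the compared libraries alone and -0.0472 with the mitochondrial covariate. Igfals with MSC at 12 h was 0.2288 with total count scaling and 0.1772 with that covariate, Igf1 with time without MSC was -0.0892 with that covariate, and Igfbp3 with time with MSC was 0.0475 with total count scaling. With 1 library left out, the MSC difference at 6 h ranged from -0.1623 to 0.122 for Stat5a, -0.4945 to 0.0668 for Igfals, -0.0968 to 0.3939 for Igfbp1, -0.0478 to 0.2818 for Igfbp2 and -0.3764 to 0.0453 for Igfbp3. At 12 h it ranged from -0.0679 to 0.1662 for Stat5a, -0.2753 to 0.0897 for Igfals and -0.3572 to 0.3596 for Igfbp3, and the interaction from -0.088 to 0.2335, -0.1465 to 0.418 and -0.1264 to 0.5913 for the same genes. The cause of these differences was not tested. The setting without mitochondrial genes was chosen after seeing the data and changed no call of the 10 genes.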
